A study of Acorus calamus with 8 samples.

Results

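Storage proteins and lectins were described across leaf and rhizome of sweet flag (Acorus calamus), a monocot whose rhizome stores the plant's reserves. The members were the assembled features whose SwissProt match names a lectin, jacalin, vicilin, globulin, patatin, germin-like protein or another storage protein, with receptor kinases left out. The rule found 58 of 24636 features, of which 13891 carry a SwissProt description, and set aside 35 lectin kinases. No description held the words agglutinin, glutelin, legumin, 2S albumin, sporamin or oleosin.

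RNA-seq covered 8 libraries, 1 for each combination of tissue (leaf or rhizome), cutting (cut or uncut explants) and time (4 days or a month). All explants grew in culture on MS medium with the auxins 2,4-D (at 2 mg/l) and NAA (at 0.5 mg/l), and cut explants had their leaves shortened. In the labels the time of an uncut explant is also counted from the cutting, and the stated purpose of the culture is rhizome extension. The name cut leaf means leaf taken from cut explants, with the other names formed in the same way. No group has a replicate, and neither the number of plants behind a library nor a genotype is given in the sources used here, so every p-value below measures only the spread between these 8 libraries.

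Storage proteins are laid down in vacuoles or protein bodies and later broken down as a source of amino acids for regrowth. Vicilins and other seed globulins fill seeds, while bulbs, tubers and rhizomes of many monocots hold abundant mannose-binding lectins of the snowdrop type, which also act against insects. Germin-like proteins are cell wall proteins of the cupin fold, the fold that vicilins share, and patatin is the main glycoprotein of potato tubers, a lipid acyl hydrolase.

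The members comprised 11 mannose-specific lectins, 10 matches to chitin-binding lectin 1, 3 jacalin-related lectins, 2 ricin B-like lectins, 1 legume lectin, 8 germin-like proteins, 10 patatin-like proteins, 1 basic 7S globulin and 12 matches to the vicilin-like protein At2g18540. The 58 features fall into 51 clusters, and contigs of 1 cluster share reads. The names were checked against the Nr and InterPro annotation in the deposited tables, which named the same protein family for 34 of the 58. That family was named for all 11 mannose-specific lectins, all 3 jacalin-related lectins, all 8 germin-like proteins and 8 of the 10 patatin-like proteins. For the mannose-specific lectins any lectin name was accepted. For Unigene9633, Unigene8348 and Unigene14070 it was a general Nr lectin name without an InterPro entry, and SwissProt calls Unigene9633 only a lectin fragment. It was named for 0 of the 12 vicilin-like matches, which Nr calls a casein kinase substrate, a glutamic acid-rich protein, DNA ligase 1 or hypothetical proteins, with SwissProt E-values from 1.9e-30 to 4.3e-07. It was also named for 0 of the 10 matches to chitin-binding lectin 1, a potato protein that joins chitin-binding domains to an extensin-like stretch; their E-values ran from 8.9e-12 to 6.9e-06 and Nr calls the largest of them an extensin-like protein. The other annotation therefore does not bear out the label for these 22 features, which are called matches here. For those that Nr calls only hypothetical proteins, the label is left without support and is not contradicted.

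Library totals ran from 6876377 to 12541185 counts, of which ribosomal RNA features held 74.98% to 97.9%. Features left after ribosomal and organelle ones, called nuclear here, held 120378 counts in uncut rhizome at 4 days and up to 1696147 in uncut leaf at a month. Levels are given as TMM-scaled CPM, in which a count is divided by the library's effective size, and 1 count was worth 0.0340 CPM in uncut leaf at a month and 0.470 CPM in uncut rhizome at 4 days. Leaf markers (chlorophyll a-b binding proteins and the Rubisco small subunit) held 1.66% to 6.16% of nuclear counts in the leaf libraries and 0.0636% to 0.293% in the rhizome libraries. Fewer cells of a type and less RNA per cell cannot be told apart in these bulk samples.

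Of the 58 members, 22 had counts in all 8 libraries and 16 held fewer than 10 counts in total. The filter on low counts kept 34, of which 20 have a family that Nr or InterPro names. The other 24 held at most 44 counts each and 21 of them were at 0 in uncut rhizome at 4 days, the shallowest library. The single legume lectin held 1 count, and all 7 members with the fewest counts among the patatin-like proteins held under 10 counts each.

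The members held a small part of the nuclear counts in every library. Their share was 0.160% (exact Clopper-Pearson 95% interval 0.152 to 0.169) in uncut leaf and 0.0927% (0.0868 to 0.0989) in cut leaf at 4 days, and 0.621% (0.578 to 0.667) in uncut rhizome and 0.147% (0.139 to 0.156) in cut rhizome at 4 days. In the libraries at a month it was 0.346% (0.337 to 0.355) in uncut leaf, 0.401% (0.387 to 0.415) in cut leaf, 0.549% (0.528 to 0.570) in uncut rhizome and 0.475% (0.456 to 0.495) in cut rhizome. The intervals cover counting error only. Uncut rhizome at 4 days was thus the highest library and the other 3 libraries of that time were the lowest.

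A few features carried these shares. Unigene1487, a match to the vicilin-like protein, and Unigene1256, a match to chitin-binding lectin 1, together held 8362 of 18205 member counts, or 45.9%. They held 45.1% to 74.6% of the members' counts in the libraries at a month and 2.21% to 15.4% at 4 days. Unigene9321, a jacalin-related lectin, held 65.9% of the members' counts in uncut rhizome at 4 days. Without Unigene1256 and Unigene1487 the summed level of the members was 78.5 to 206 CPM at a month, against 58.5 to 334 CPM at 4 days, so the groups overlapped.

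**Figure D1:**
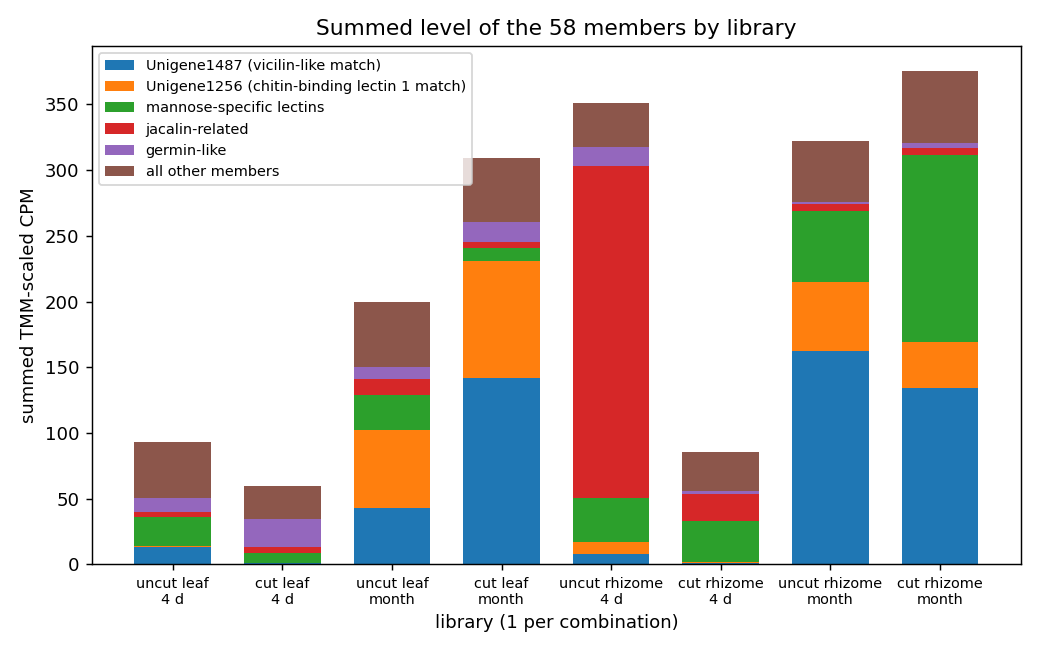
Summed TMM-scaled CPM (y axis) of the 58 members in each of the 8 libraries (x axis), stacked by feature or class, with no error bars since each bar is 1 library. Unigene1487 and Unigene1256 make up 45.1% to 74.6% of the members' counts at a month, the jacalin-related lectins fill most of the bar of uncut rhizome at 4 days, and the mannose-specific lectins are highest in cut rhizome at a month.

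The mannose-specific lectins, known as storage and defence proteins of monocot bulbs and tubers, had a higher summed level in each rhizome library than in any leaf library. Their summed level in leaf was 21.4 CPM uncut and 7.41 CPM cut at 4 days, and 26.8 CPM uncut and 9.66 CPM cut at a month. In rhizome it was 32.9 CPM uncut and 30.8 CPM cut at 4 days, and 54.2 CPM uncut and 142 CPM cut at a month. That separation rested on CL1454.Contig2. Without it the sum was 20.8 CPM in uncut and 6.94 CPM in cut leaf at 4 days and 25.9 CPM in uncut and 8.55 CPM in cut leaf at a month, and in rhizome it was 18.8 CPM in uncut and 12.7 CPM in cut tissue at 4 days and 40.5 CPM in uncut and 42.2 CPM in cut tissue at a month, so the tissues overlapped. Another of these lectins, Unigene4905, was lower in rhizome in 4 of 4 pairs, with a log2 difference of -1.14 ± 0.45 (edgeR adjusted p = 0.129).

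Tissue was compared over 4 matched pairs of rhizome and leaf libraries with edgeR's quasi-likelihood test, Benjamini-Hochberg adjusted over all 11682 features tested, with a threshold of 0.05. In rhizome against leaf, 4 of the 34 tested members were higher, where 2.07% of all features were, and 3 were lower, where 6.93% of all features were. The median log2 change of the members was -0.12, against -0.14 over all features. All 7 members past the threshold belong to the 20 whose family Nr or InterPro names. The count of 7 fell to between 2 and 6 when a pair of libraries was left out, the lowest being without the uncut pair at 4 days. That fit called 76 of all 10911 features higher and 368 lower, against 242 and 809 of 11682 in the main fit.

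CL1454.Contig2, a mannose-specific lectin that Nr matches to a garlic lectin, was the most clearly rhizome-rich member. In leaf it stood at 0.553 CPM uncut and 0.463 CPM cut at 4 days, and at 0.851 CPM uncut and 1.11 CPM cut at a month. In rhizome it stood at 14.1 CPM uncut and 18.1 CPM cut at 4 days, and at 13.7 CPM uncut and 99.5 CPM cut at a month. The tissues did not overlap, and cut rhizome at a month stood far above the other 3 rhizome libraries. It was higher in rhizome in 4 of 4 pairs by 5.07 ± 0.54 on the log2 scale (SE; edgeR adjusted p = 0.0001), and it passed in all 11 other settings tried, by 3.05 to 5.56.

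Its cluster partner CL1454.Contig1 did not share that pattern. It stood at 2.84 to 5.23 CPM in leaf and at 1.88 to 10.5 CPM in rhizome, and the tissues overlapped, with a log2 difference of 0.64 ± 0.51 (edgeR adjusted p = 0.49). Reads can pass between contigs of 1 cluster. Summed over both contigs, CL1454 was higher in rhizome by 2.76 ± 0.49 (edgeR adjusted p = 0.0018).

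CL2458.Contig1, another mannose-specific lectin, stood in leaf at 3.69 CPM uncut and 1.72 CPM cut at 4 days, and at 5.68 CPM uncut and 0.604 CPM cut at a month. In rhizome it stood at 15.5 CPM uncut and 2.09 CPM cut at 4 days, and at 25.1 CPM uncut and 20.1 CPM cut at a month. Cut rhizome at 4 days lay within the leaf values and the other 3 rhizome libraries lay above them. It was higher in rhizome in 4 of 4 pairs by 2.26 ± 0.64 (edgeR adjusted p = 0.0429). The call ended without the cut pair at a month, at 1.59, and without the uncut pair at 4 days, at 2.32; the change was 2.96 without the cut pair at 4 days. With both contigs of its cluster summed it missed the threshold (2.05 ± 0.62, edgeR adjusted p = 0.0521), and on log2(FPKM + 1) it came to 0.93, also not past it.

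The 3 jacalin-related lectins, which bind sugars through a beta-prism domain, differed from one another. Unigene11046, whose jacalin-like domain InterPro names, had 0 counts in all 4 leaf libraries. In rhizome it stood at 19.7 CPM uncut and 6.01 CPM cut at 4 days, and at 0 uncut and 0.507 CPM (3 counts) cut at a month. The signal lay in rhizome at 4 days. Pooled over the libraries, rhizome held 134 counts, which is at least 102-fold higher than the leaf floor of 3 counts over the group; leaving out 1 library moved that bound to between 59.6-fold and 138-fold. The fitted tissue change (9.07 ± 1.09, edgeR adjusted p = 0.0004) depends on the prior count and is no bound. The test could not be run without either pair at 4 days, since the feature then failed the filter, and DESeq2's Wald test did not call it (adjusted p = 0.161).

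Unigene9321, a jacalin-related lectin with an InterPro jacalin-like domain, had its highest level by far in 1 library. It stood at 231.6 CPM (493 counts) in uncut rhizome and at 10.6 CPM in cut rhizome at 4 days. By a month rhizome stood at 1.48 CPM uncut and 2.70 CPM cut. In leaf it stood at 1.05 CPM uncut and 1.52 CPM cut at 4 days, and at 4.53 CPM uncut and 0.201 CPM cut at a month. The tissue difference of 3.11 ± 1.71 was higher in rhizome in 3 of 4 pairs and missed the threshold (edgeR adjusted p = 0.342). Within 4 days it was 5.28 ± 1.11 (edgeR adjusted p = 0.003), and within a month 0.41 ± 1.06 (edgeR adjusted p = 0.873). The value at 4 days was 2.78 without the uncut pair of that time and 7.72, no longer past the threshold, without the cut one. In the cut pair at 4 days rhizome was also higher than leaf, by 6.97-fold (157 counts against 23). Uncut rhizome at 4 days, which held the highest value, was the shallowest library of the 8. The part of depth in that value was not tested. Unigene9422, singled out here as the remaining jacalin-related lectin after its values were seen, stood between 1.41 and 7.42 CPM in all 8 libraries.

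Unigene1465 matches patatin-like protein 7, from a family of plant lipid acyl hydrolases. In leaf it stood at 2.64 CPM uncut and 0.397 CPM cut at 4 days, and at 0.953 CPM uncut and 2.11 CPM cut at a month. In rhizome it stood at 3.29 CPM uncut and 2.43 CPM cut at 4 days, and at 8.50 CPM uncut and 9.46 CPM cut at a month. The tissues overlapped at 1 library, uncut leaf at 4 days. It was higher in rhizome in 4 of 4 pairs by 2.12 ± 0.53 (edgeR adjusted p = 0.0216). The call ended without the cut pair at a month (2.15), without the uncut pair at a month (1.78), in an additive model (1.82) and on log2(FPKM + 1), where the change was 0.60.

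**Figure D2:**
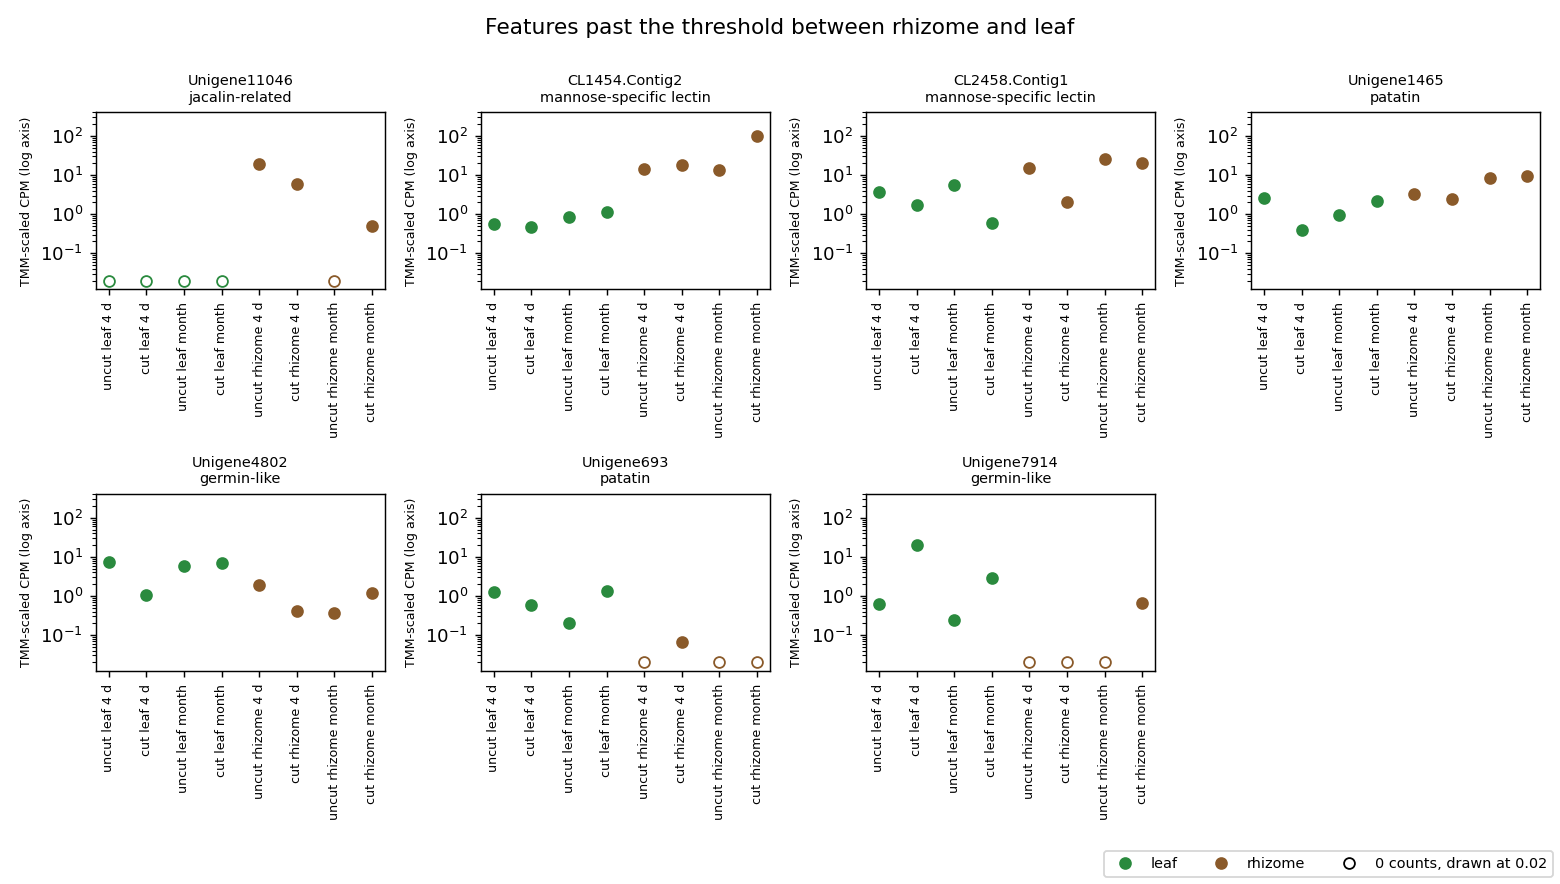
TMM-scaled CPM on a log axis (y) in the 8 libraries (x) for the 7 members past the threshold between tissues, each point being 1 library, green for leaf and brown for rhizome, with open circles for 0 counts. CL1454.Contig2 stands at 0.463 to 1.11 CPM in leaf and at 13.7 to 99.5 CPM in rhizome, and Unigene11046 has counts in 3 of the 4 rhizome libraries alone.

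Of the 3 members lower in rhizome, 2 were germin-like proteins. Unigene4802 matches germin-like protein 5-1. It stood in leaf at 7.38 CPM uncut and 1.06 CPM cut at 4 days, and at 5.96 CPM uncut and 7.05 CPM cut at a month. In rhizome it stood at 1.88 CPM uncut and 0.405 CPM cut at 4 days, and at 0.370 CPM uncut and 1.18 CPM cut at a month. Cut leaf at 4 days was the 1 leaf library that lay among the rhizome values. It was lower in rhizome in 4 of 4 pairs, and fell by 2.46 ± 0.54 (edgeR adjusted p = 0.0109); the call ended without the cut pair at a month (-2.36), the uncut pair at 4 days (-2.62) or the uncut pair at a month (-1.92).

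Unigene7914 matches germin-like protein 8-14. In leaf it stood at 0.615 CPM uncut and 20.2 CPM (305 counts) cut at 4 days, and at 0.238 CPM uncut and 2.92 CPM cut at a month. In rhizome it had 0 counts in 3 libraries and stood at 0.676 CPM (4 counts) in cut rhizome at a month. Cut leaf at 4 days was far above every other library, and cut rhizome at a month lay among the leaf values. It was lower in rhizome in 4 of 4 pairs, and fell by 5.22 ± 1.26 (edgeR adjusted p = 0.0237). In the uncut pairs rhizome held 0 counts, against 10 leaf counts at 4 days and 7 at a month. A floor of 3 counts in uncut rhizome stands for 1.41 CPM at 4 days and 0.370 CPM at a month. These lie above the uncut leaf values, so the direction of the uncut pairs is not resolved at this depth. The call ended without the cut pair at 4 days (-2.52) and without the uncut pair at 4 days (-5.29), and in DESeq2's Wald test (adjusted p = 0.209); without the cut pair at a month, when rhizome held 0 counts, the fitted value was -10.42.

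Unigene693, a match to patatin-like protein 3, stood at 0.204 to 1.31 CPM in the 4 leaf libraries. Of the rhizome libraries, 3 held 0 counts and cut rhizome at 4 days held 1 count. Pooled, leaf held 49 counts and rhizome 1, a ratio of 21.5 with a counting interval of 3.68 to 865. Leaving out 1 library moved the ratio to between 15.8 and 32.2, the highest without uncut leaf at a month; without cut rhizome at 4 days, which held the only rhizome count, leaf was at least 3.73-fold higher than the floor of 3 counts over the group. In uncut rhizome, where the feature had 0 counts, 3 counts stand for 1.41 CPM at 4 days and 0.370 CPM at a month. Uncut leaf stood below these, at 1.29 CPM and 0.204 CPM, so the direction of the uncut pairs is not resolved at this depth. The fitted change fell by 4.14 ± 1.16 (edgeR adjusted p = 0.0376). The call ended or could not be tested when any 1 of the 4 pairs was left out; in the 2 fits that could be run the change was -6.14, with rhizome at 0 counts, and -3.97.

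CL1667.Contig1 matches the ricin B-like lectin EULS3, a member of a lectin family found in land plants and known in Arabidopsis for its response to drought and abscisic acid. It stood at 5.92 to 7.65 CPM in leaf and at 5.64 to 10.98 CPM in rhizome, a spread of 1.95-fold over the 8 libraries. Its log2 differences were 0.29 ± 0.40 for tissue, 0.32 ± 0.44 for time and 0.29 ± 0.44 for cutting, none past the threshold. Unigene4898, the basic 7S globulin, a protein type first known from legume seeds that is related to aspartic proteases, stood at 0.397 to 2.38 CPM in leaf and at 1.23 to 8.46 CPM in rhizome. The highest value was that of uncut rhizome at 4 days, and the tissues overlapped. Its tissue difference was 3.39 ± 0.85 within 4 days (edgeR adjusted p = 0.0028) and -0.22 ± 0.78 within a month (edgeR adjusted p = 0.913). The call at 4 days ended when the uncut pair of that time (2.65) or either pair at a month (3.35 and 3.44) was left out.

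The tissue effect was also read within each time, a comparison added after the data were seen. Each time rests on 2 pairs, with 2 residual degrees of freedom shared by both times. Fits within a time with a pair left out, here and for cutting, keep 1 residual degree of freedom. Shares over all features are not given for them, so a change in their number of calls cannot be read as particular to the members. At 4 days edgeR called 5 members higher in rhizome (Unigene9321, Unigene11046, Unigene1256, CL1454.Contig2 and Unigene4898), where 1.16% of all features were, and 1 lower, Unigene7914, where 4.09% were. At a month it called 6 higher (CL1454.Contig2, CL2458.Contig1, Unigene10843, Unigene9633, Unigene2039 and Unigene1465), where 5.6% of all features were, and 1 lower, Unigene4802, where 7.29% were. Unigene2039, a mannose-specific lectin, stood at a month at 0.0340 CPM in uncut leaf and 0 in cut leaf, and at 0.616 CPM in uncut rhizome and 3.55 CPM in cut rhizome. The 6 calls at 4 days fell to 4 whichever pair was left out. The 7 calls at a month came to 1 without the cut pair and 2 without the uncut pair of that time, and to 9 without either pair at 4 days. CL1454.Contig2 was the only member called at both times, and it passed with every pair left out.

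**Figure D3:**
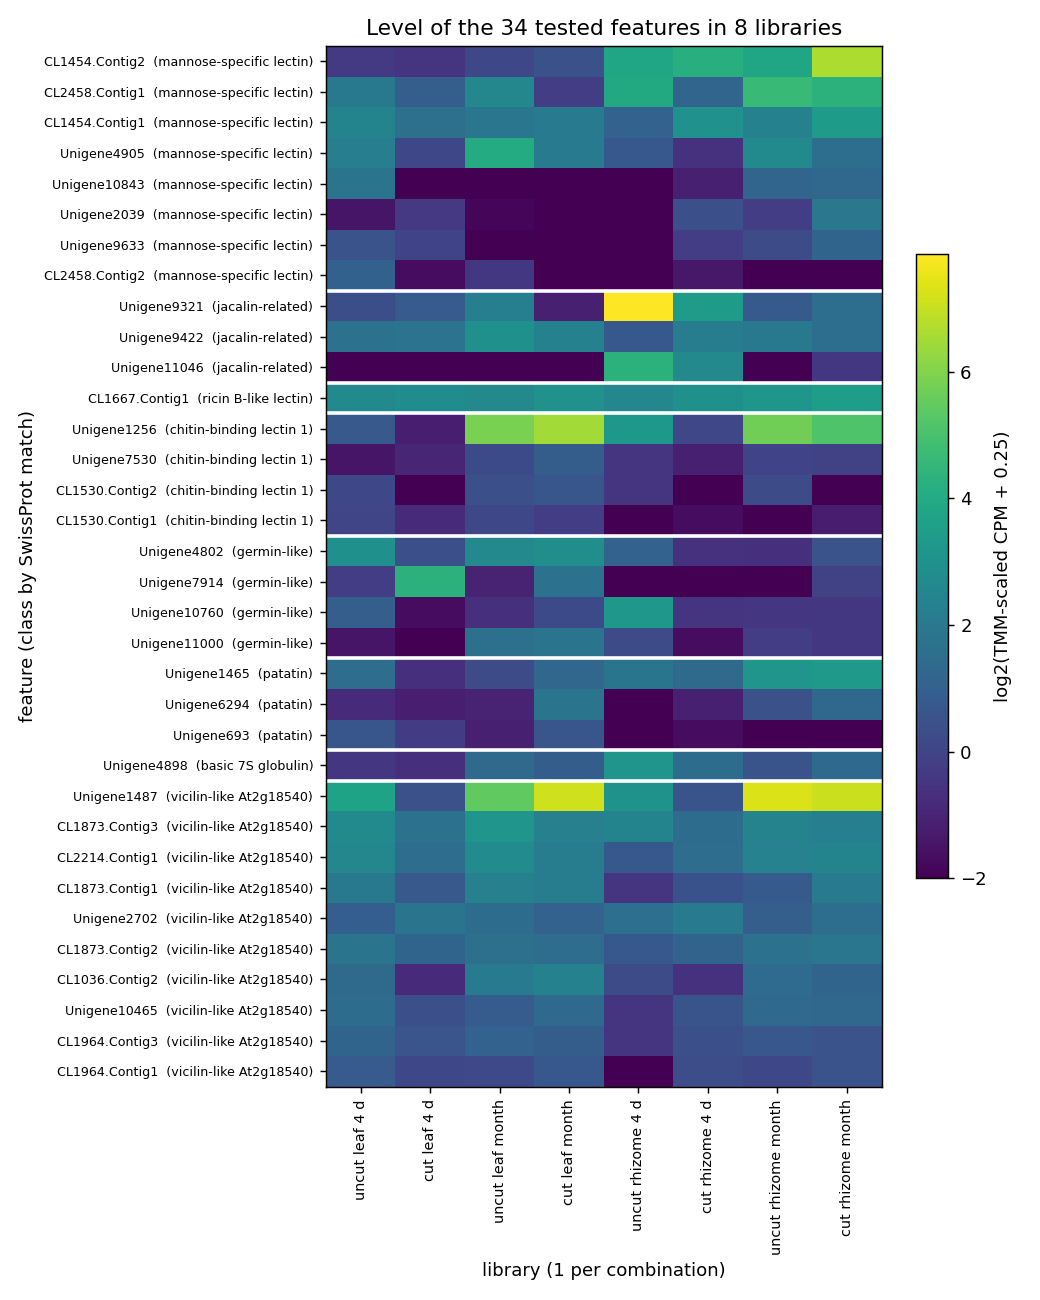
Levels of the 34 tested members (rows, grouped by class) in the 8 libraries (columns) as log2(TMM-scaled CPM + 0.25), with the darkest colour standing for 0 counts. CL1454.Contig2 is bright in the 4 rhizome columns, Unigene1256 and Unigene1487 in the 4 columns at a month, Unigene9321 in uncut rhizome at 4 days, and CL1667.Contig1 changes little across the row.

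Time was compared over 4 matched pairs of libraries at a month and at 4 days. At a month, 3 of the 34 tested members were higher, where 7.81% of all features were, and 1 was lower, where 0.95% of all features were. The members' median log2 change was 0.58, against 0.02 over all features, and 26 of the 34 lay above 0. Among the 20 members whose family the other annotation names, 1 was higher, 1 was lower and the median was 0.37. Leaving out a pair gave 2 to 4 calls, the lowest without the pair of cut rhizome libraries. That fit called 566 of all 10778 features higher and 46 lower, against 912 and 111 of 11682 in the main fit.

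Both features with the most counts rose. Unigene1256, the match to chitin-binding lectin 1 that Nr calls an extensin-like protein, stood at 4 days at 1.41 CPM in uncut leaf, 0.198 CPM in cut leaf, 9.40 CPM in uncut rhizome and 0.810 CPM in cut rhizome. At a month it stood at 59.1 CPM in uncut leaf, 89.1 CPM in cut leaf, 52.4 CPM in uncut rhizome and 35.3 CPM in cut rhizome. The times did not overlap. It was higher at a month in 4 of 4 pairs by 5.37 ± 0.92 (edgeR adjusted p = 0.0042) and passed in all 11 other settings; the change was 4.43 without the pair of cut leaf libraries and 6.22 without that of uncut rhizome. The other 9 matches to this protein reached at most 1.88 CPM in any library.

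Unigene1487, the match to the vicilin-like protein that Nr calls DNA ligase 1, stood at 4 days at 12.9 CPM in uncut leaf, 1.12 CPM in cut leaf, 7.99 CPM in uncut rhizome and 1.22 CPM in cut rhizome. At a month it stood at 42.9 CPM in uncut leaf, 141.9 CPM in cut leaf, 162 CPM in uncut rhizome and 134 CPM in cut rhizome. The times did not overlap, and uncut leaf was the lowest library at a month. It was higher at a month in 4 of 4 pairs by 5.07 ± 0.96 (edgeR adjusted p = 0.0078). The call ended without the pair of uncut rhizome libraries (5.35, edgeR adjusted p = 0.059), and with other pairs left out the change ran from 4.23 to 6.09.

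The other 9 vicilin-like matches that were tested did not share that change. They stood at 0 to 8.47 CPM, their log2 changes over time ran from -0.32 to 1.99, and the smallest edgeR adjusted p among them was 0.1. The most abundant of them by mean FPKM, CL1873.Contig1, a casein kinase substrate by Nr, stood at 0.470 to 4.63 CPM.

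The 1 member past the threshold for a rise over time whose family the other annotation names was Unigene4905, a mannose-specific lectin of the bulb type. At 4 days it stood at 4.43 CPM in uncut leaf, 0.860 CPM in cut leaf, 1.41 CPM in uncut rhizome and 0.405 CPM in cut rhizome. At a month it stood at 16.3 CPM in uncut leaf, 4.03 CPM in cut leaf, 6.28 CPM in uncut rhizome and 2.70 CPM in cut rhizome. The times overlapped only through uncut leaf at 4 days, and in each tissue and at each time the cut library was the lower one. It was higher at a month in 4 of 4 pairs by 2.21 ± 0.49 (edgeR adjusted p = 0.0142); the call ended without the pair of uncut leaf libraries (2.38) and without that of cut rhizome (2.02).

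Unigene11046, the jacalin-related lectin without leaf counts, was the member lower at a month, with 131 counts at 4 days and 3 at a month. The pooled ratio was 48.2 with a counting interval of 16.1 to 237, and it ran from 21.7 to 72.7 when 1 library was left out where counts at a month remained. The fitted change fell by 5.26 ± 1.26 (edgeR adjusted p = 0.0327). The 2 rhizome pairs gave the direction, the feature failed the filter without either of them, and DESeq2's Wald test did not call it (adjusted p = 0.753). The germin-like feature Unigene11000 had the next smallest p, with 0.123 CPM in uncut leaf, 0 in cut leaf, 0.940 CPM in uncut rhizome and 0.0675 CPM in cut rhizome at 4 days. Its values at a month were 2.82 CPM in uncut leaf, 3.22 CPM in cut leaf, 0.616 CPM in uncut rhizome and 0.507 CPM in cut rhizome, and the log2 difference of 3.60 ± 1.16 missed the threshold (edgeR adjusted p = 0.0825).

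**Figure D4:**
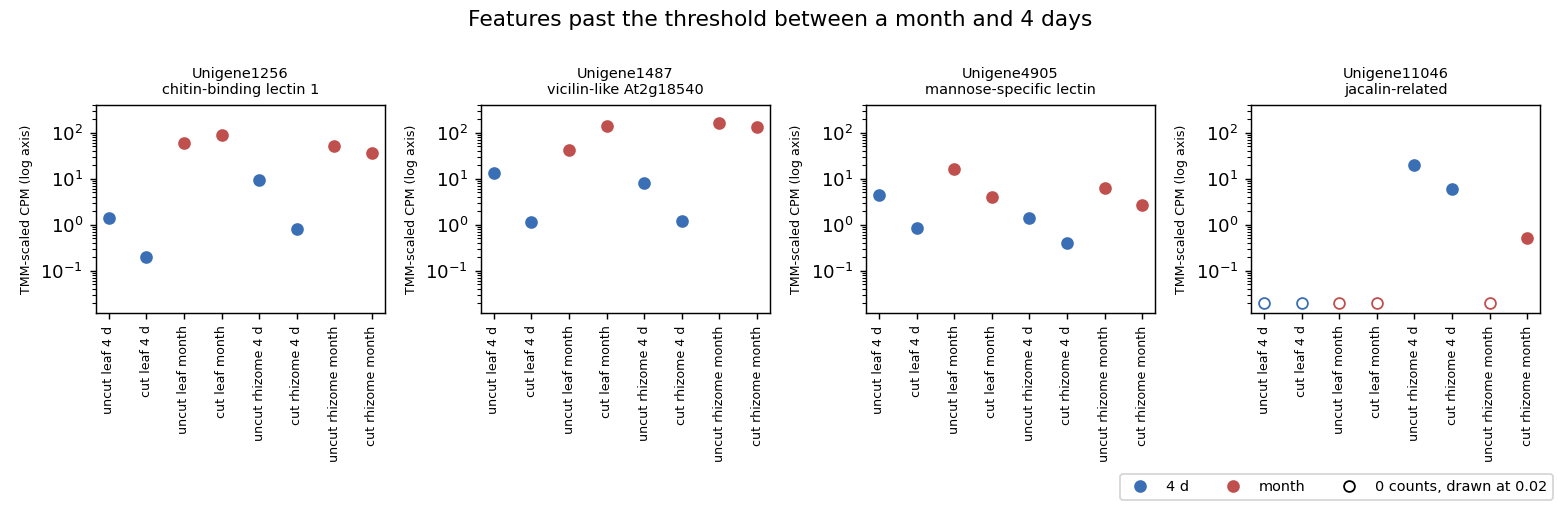
TMM-scaled CPM on a log axis (y) in the 8 libraries (x) for the 4 members past the threshold between times, each point being 1 library, blue for 4 days and red for a month, with open circles for 0 counts. Unigene1256 and Unigene1487 stand at 35.3 to 89.1 CPM and 42.9 to 162 CPM at a month, above every library at 4 days.

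Cutting was compared over 4 matched pairs of cut and uncut libraries. By edgeR's quasi-likelihood test 0 of the 34 tested members passed the threshold, where 0.00856% of all features (1 of 11682) did. An unadjusted p under 0.05 was held by 5 members, and by 967 of all 11682 features. DESeq2's Wald test called 2 members, where 0.599% of all features were called, and leaving out a pair gave 0 to 3 calls, the highest without the pair of leaf libraries at a month, where 2.74% of 9991 features were called. The members' median log2 difference was -0.32, against 0.09 over all features, and 22 of the 34 lay below 0. Without the leaf pair at 4 days the members' median was 0.00.

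Read within each time, again with 2 pairs a time and added after the data were seen, cutting did give member calls. These p-values lean on a spread estimated over all features more than on the 2 residual degrees of freedom. Within each tissue instead, cutting called 0 of the 34 members in leaf and 0 in rhizome. Of all features it called 0 in leaf and 3 in rhizome, all lower. How far the spread estimate accounts for this gap was not tested. At 4 days edgeR called 1 member higher in cut tissue, Unigene7914, where 4.64% of all features were, and 5 lower, where 2.35% were. The lower ones were Unigene1487, Unigene1256 and Unigene10760, whose values are given with the differences of effects, Unigene4802 (-2.58 ± 0.79, edgeR adjusted p = 0.0227) and CL2458.Contig1 (-1.98 ± 0.65, edgeR adjusted p = 0.0355). Leaving out a pair gave 4 to 8 calls; Unigene1256 and Unigene1487 passed with each pair left out, while CL2458.Contig1 and Unigene4802 passed in 1 of the 4 such fits. At a month 1 member was higher, Unigene7914, where 0.24% of all features were, and 0 were lower, where 0.0514% were; leaving out a pair gave 0 to 2 calls.

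The smallest p was that of Unigene7914, the germin-like protein 8-14 match described above. It was higher in cut leaf than in uncut leaf at both times, by 32.8-fold at 4 days, and in rhizome it had counts only in cut tissue at a month. Its log2 difference of 4.40 ± 0.79 missed the threshold in edgeR (adjusted p = 0.0801) and passed in DESeq2 (3.73, adjusted p = 0.0168), with no filter on low counts (4.35) and without the leaf pair (4.77) or the rhizome pair (4.33) at a month. Within 4 days it was 5.002 ± 1.07 (edgeR adjusted p = 0.00025) and within a month 3.75 ± 0.97 (edgeR adjusted p = 0.0408). The first rests on the leaf pair alone, since both rhizome libraries at 4 days held 0 counts, and the second passed only without the rhizome pair at 4 days among the fits with a pair left out. Unigene4905 was lower in cut tissue in 4 of 4 pairs, with a log2 difference of -1.85 ± 0.52 (edgeR adjusted p = 0.32; DESeq2 adjusted p = 0.026). CL2458.Contig1 was also lower in cut tissue in 4 of 4 pairs, with a log2 difference of -1.80 ± 0.57 over both times (edgeR adjusted p = 0.387).

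**Figure D5:**
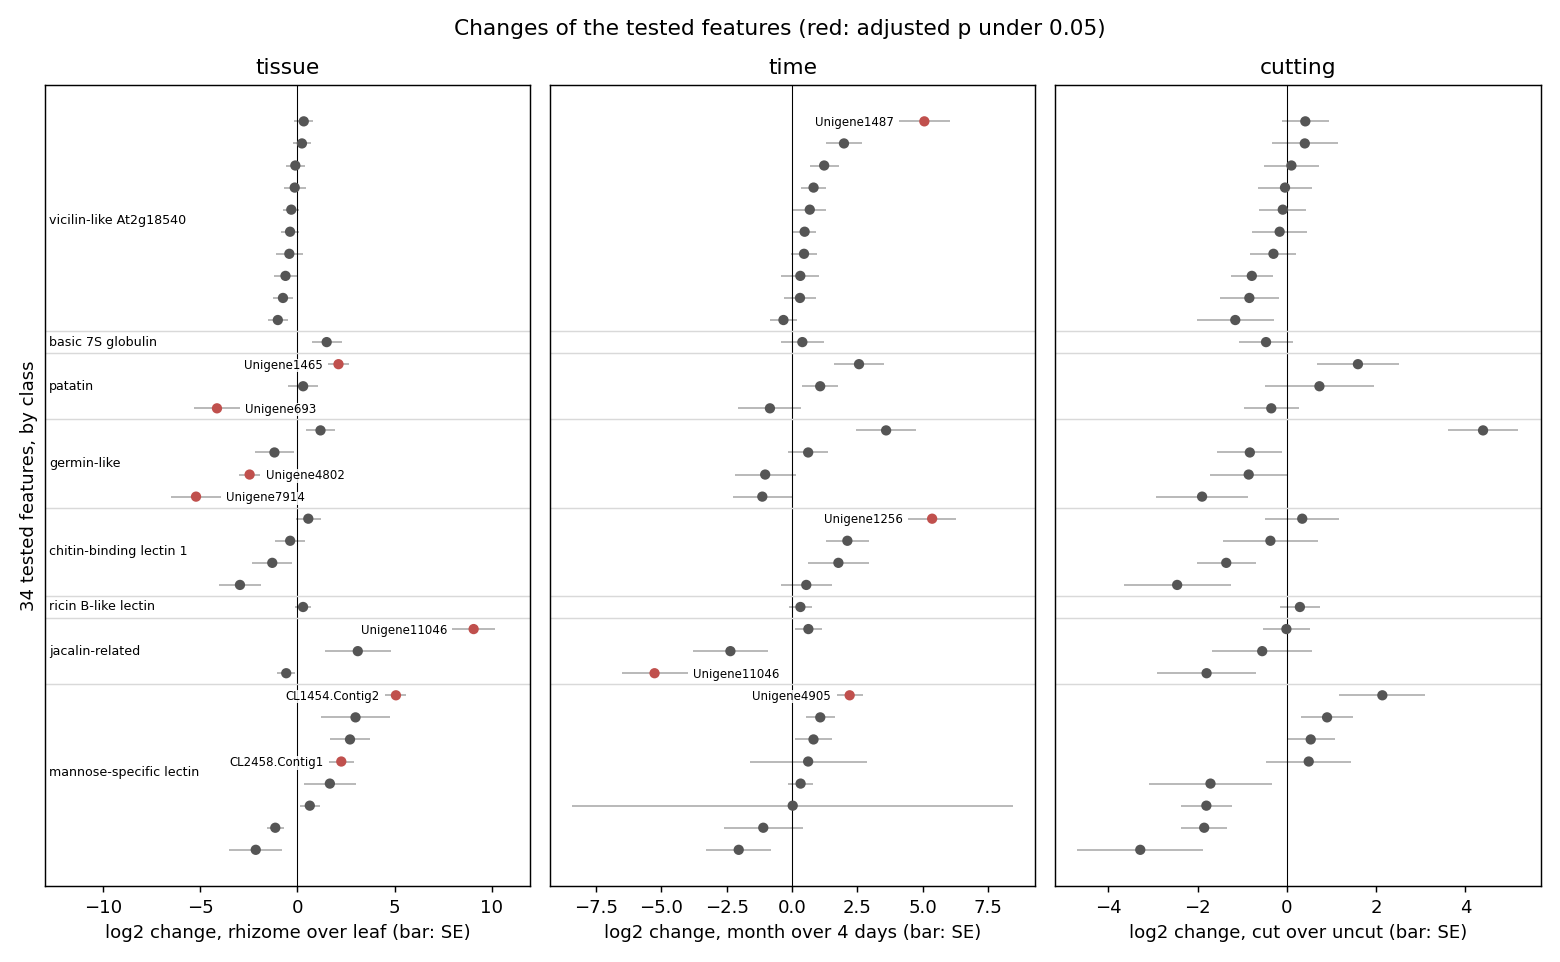
Log2 differences of the 34 tested members (points, 1 row each, sorted within class) for rhizome over leaf, a month over 4 days and cut over uncut, with bars for 1 SE and red points for an adjusted p under 0.05. There are 7 red points for tissue, 4 for time and 0 for cutting.

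The 4 pairs of cut and uncut libraries were also read singly, without a test, counting a feature that reached 50 counts in the higher library and differed at least 4-fold. In leaf at 4 days, 1 of 13 members that reached 50 counts was higher in cut tissue and 4 were lower, where 11.1% and 8.44% of the 4066 features reaching it were. The higher one was Unigene7914 and the lower ones were Unigene1487 (11.5-fold), Unigene4802 (6.97-fold), Unigene4905 (5.15-fold) and the mannose-specific lectin Unigene10843, which went from 52 counts to 0. The share of the members that was lower thus exceeded the share that was higher in that pair.

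In leaf at a month, 0 of 18 such members were higher in cut tissue and 3 were lower, where 1.5% and 2.19% of 5536 features were. These were 3 sugar-binding lectins: CL2458.Contig1 (9.41-fold), Unigene4905 (4.06-fold) and Unigene9321, which went from 133 counts to 2. In rhizome at 4 days, 1 of 7 was higher, where 16% of 2833 features were, and 1 was lower, where 2.29% were: CL1454.Contig1 was 4.13-fold higher and Unigene9321 21.8-fold lower in cut tissue. In rhizome at a month, 1 of 8 was higher and 0 were lower, where 3.83% and 1.18% of 1696 features were. That one was CL1454.Contig2, which was 7.27-fold higher in cut rhizome.

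Whether effects differed between levels of another factor was tested in edgeR as a difference of effects. The p-values lean on a spread estimated over all features as well as on the residual degrees of freedom. The cutting effect differed between tissues for 0 of 34 members, where 0% of all features passed. An unadjusted p under 0.05 was held by 1 member, and by 199 of all 11682 features. The cutting effect differed between times for 3 members, where 1.96% of all features passed. The tissue effect differed between times for 4 members, where 1% of all features passed. These fits have 2 residual degrees of freedom, and leaving out a pair took the last 2 counts to between 0 and 4.

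Cutting differed in its effect between times for Unigene1487, Unigene1256 and Unigene10760, a germin-like protein. At 4 days the cut libraries were, after scaling, lower than the uncut ones in both tissues, by -3.13 ± 0.64 for Unigene1487, -3.23 ± 0.72 for Unigene1256 and -4.36 ± 1.04 for Unigene10760 on the log2 scale. In rhizome at 4 days the counts, uncut then cut, were 17 and 18 for Unigene1487, 20 and 12 for Unigene1256, and 20 and 7 for Unigene10760. The rhizome side thus rests on few reads and largely on the effective library sizes, 2128592 uncut and 14808996 cut. At a month the corresponding values were 0.73 ± 0.58, 0.02 ± 0.57 and 0.79 ± 1.03. The differences were 3.86 ± 0.86 (edgeR adjusted p = 0.0018), 3.24 ± 0.92 (edgeR adjusted p = 0.0282) and 5.15 ± 1.48 (edgeR adjusted p = 0.0341). All 3 calls ended without the leaf pair or without the rhizome pair at a month, and those of Unigene1256 and Unigene10760 also without the rhizome pair at 4 days.

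Unigene10760 stood at 4 days at 1.72 CPM in uncut leaf, 0.0661 CPM (1 count) in cut leaf, 9.40 CPM in uncut rhizome and 0.473 CPM in cut rhizome. Its 4 libraries at a month lay between 0.374 and 0.906 CPM. Uncut rhizome at 4 days, its highest library, held 20 counts.

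The tissue effect differed between times for Unigene7914, Unigene1256 and the mannose-specific lectins Unigene10843 and Unigene9633. Unigene10843 stood in leaf at 3.20 CPM in uncut tissue at 4 days and at 0 in the other 3 libraries. In rhizome it had 0 counts uncut and 0.203 CPM cut at 4 days, and 2.09 CPM uncut and 2.20 CPM cut at a month. It thus had counts in uncut leaf at 4 days and in both rhizome libraries at a month.

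Unigene9633, which Nr matches to a yam tuber lectin, stood in leaf at 1.17 CPM uncut and 0.727 CPM cut at 4 days and at 0 in both libraries at a month. In rhizome it had 0 counts uncut and 0.608 CPM cut at 4 days, and 0.986 CPM uncut and 2.03 CPM cut at a month. The differences of the tissue effect, a month minus 4 days, were 8.83 ± 2.26 for Unigene10843 (edgeR adjusted p = 0.0159) and 8.04 ± 2.19 for Unigene9633 (edgeR adjusted p = 0.031). Since leaf at a month held 0 counts of both, these fitted sizes depend on the prior count. For Unigene9633 the direction of the tissue effect at 4 days was also not resolved. Its 1.17 CPM in uncut leaf lay below the 1.41 CPM that 3 counts stand for in uncut rhizome. Its cut libraries stood close together, at 0.727 CPM in leaf and 0.608 CPM in rhizome.

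For Unigene7914 the difference was 8.48 ± 2.37 (edgeR adjusted p = 0.0381), with rhizome at 0 at 4 days, so its size also depends on the prior count. For Unigene1256 it was -3.21 ± 0.91 (edgeR adjusted p = 0.0458), with rhizome above leaf by 2.45 ± 0.71 at 4 days and a value of -0.75 ± 0.57 at a month. No call of the 4 held in every fit with a pair left out, and without the uncut pair at a month none of them did.

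Genes that act beside these proteins were counted from lists drawn from the SwissProt descriptions. Of 30 features for the sorting and processing of storage proteins (vacuolar sorting receptors, vacuolar processing enzyme and protein disulfide isomerases), 21 were tested. The list was drawn by name and includes the disulfide isomerases pTAC5 and LQY1, which are described as chloroplastic. For tissue 1 of 21 was higher in rhizome, where 2.07% of all features were, and 0 were lower, where 6.93% were. The higher one was Unigene8054, a protein disulfide isomerase-like 1-4 match, an enzyme that forms disulfide bonds in the endoplasmic reticulum (1.91 ± 0.50, edgeR adjusted p = 0.0261). For time 0 of 21 passed, where 7.81% of all features were higher and 0.95% lower. For cutting 0 of 21 passed, where 0.00856% of all features did. The medians were 0.34 for tissue, 0.19 for time and 0.10 for cutting.

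Of 9 features for oil bodies and oil synthesis, 6 were tested. For time 1 of the 6 was higher at a month, where 7.81% of all features were, and for tissue and cutting 0 passed. That one was Unigene5190, a match to the cytosolic diacylglycerol O-acyltransferase 3, higher by 3.17 ± 0.73 (edgeR adjusted p = 0.0172). A search by name for seed programme regulators found 6 features. Of these, 5 were tested and 0 passed for any of the 3 factors, with 0 at an unadjusted p under 0.05. By description 4 of the 6 match the splicing factor SUPPRESSOR OF ABI3-5, and the others match a LEC14B homolog and Protein OPAQUE1. No description names a seed regulator itself, so these counts do not cover such regulators. A search of the SwissProt descriptions for superoxide and oxalate enzymes, activities reported for some germins, found 9 superoxide dismutases and 2 copper chaperones for them. It found no oxalate enzyme, though Nr matches the germin-like member Unigene11000 to an oxalate oxidase 1-like protein. Of the 11 features found, 5 were tested and 1 was higher in rhizome, where 2.07% of all features were. That was CL150.Contig2, a copper-zinc superoxide dismutase, higher by 1.50 ± 0.43 (edgeR adjusted p = 0.0432). In cutting 0 members of all 4 lists passed by edgeR.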

How the data were processed

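Per the file headers, each of the 8 deposited tables holds an expected count, an FPKM value and a feature length in bases, with Nr, Nt, SwissProt and InterPro text. Per the submitters' processing notes, the authors used Bowtie2 and RSEM, with versions not stated, to make the deposited expected count and FPKM columns. The labels name oligo dT selection or ribosomal RNA depletion, without saying which library had which.

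Members and related lists were chosen with earlier results of these data known. Features missing from a table were taken as 0. Expected counts were rounded and tested with edgeR 4.0.16 (R 4.3.3), using filterByExpr on the design matrix, TMM scaling and a robust quasi-likelihood fit. Each factor was tested over 4 matched pairs with the other 2 factors as a block, leaving 3 residual degrees of freedom, and each difference of effects with 2. Adjusted p-values cover all 11682 features tested; errors are the log2 change divided by the square root of F. Ribosomal (35), organelle (213) and nuclear (24388) features were told apart by Nt and Nr text.

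Alternatives were DESeq2 1.42.0 size factors and its Wald test, no filter, an additive model, no ribosomal or organelle features, limma 3.58.1 on log2(FPKM + 1) and log2(FPKM + 0.1), summed contigs of a cluster, and each pair left out. For single pairs of libraries, a library at 0 to 3 counts was counted as 3. The code was tested on simulated data. Named features are every member past the threshold, the 3 smallest p-values per factor, the 10 highest by mean FPKM, up to 5 per single pair by the ratio, and the member with the most counts in each class.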

Additional observations from a re-analysis of the deposited data

Results flagged for a closer look

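The effect of cutting differed between the times for 3 members in the test of the difference itself, given here as the log2 effect at a month minus that at 4 days: 5.15 for Unigene10760, 3.24 for Unigene1256 and 3.86 for Unigene1487. The tissue effect, rhizome over leaf, differed between the times for 4 members on the same scale: 8.48 for Unigene7914, -3.21 for Unigene1256, 8.83 for Unigene10843 and 8.04 for Unigene9633. Each rests on 4 pairs of libraries with 2 residual degrees of freedom.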

How the results depend on the processing

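With a pair of libraries left out, calls ran from 2 to 6 for tissue, 2 to 4 for time, 0 to 3 for cutting, 0 to 0 for the difference of the cutting effect between tissues, 0 to 4 for that between times and 0 to 4 for the difference of the tissue effect between times. Within a time, they ran from 4 to 8 for cutting and 4 to 4 for tissue at 4 days, and from 0 to 2 for cutting and 1 to 9 for tissue at a month. The fits of differences and within a time leave 1 residual degree of freedom and were added after seeing the data. Shares over all features are not given for these fits. For cutting, DESeq2's Wald test called 2 members, no filter on low counts 1 and summed contigs 1. Restricting the members to those whose family Nr or InterPro names, also added after seeing the data, left 2 calls for time and 7 for tissue. By the Nr text the rule finds 34 members, 30 of them shared. The size rule over the 12 single pairs gave 44 member and pair combinations, 77 with a minimum of 20 counts, 75 at 2-fold and 26 at 8-fold. Shares over all features are given above only for the 4 cutting pairs. These totals therefore do not show whether members passed the rule more often than other features.

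Unigene19161, the largest nuclear feature, has no description; without it the members' share of nuclear counts was 0.398% in uncut leaf, 0.736% in uncut rhizome, 0.555% in cut leaf and 0.824% in cut rhizome at a month, and 0.202%, 1.09%, 0.135% and 0.216% in the same order at 4 days. For the 41 single-member results, 176 of 254 alternative values kept their side of the threshold, 73 lost it, 5 gained it and 0 changed sign. The median of all features moved by over 0.1 for tissue on the FPKM scale (by -0.59 with 1 added and -1.16 with 0.1 added), without a filter (-0.18) and without the uncut pair at 4 days (0.11); for time with DESeq2 size factors (-0.11), its Wald test (-0.10), no filter (-0.13) and without the uncut rhizome pair (-0.17); and for cutting on log2(FPKM + 1) (-0.16). The main tests already pair libraries that match in the other 2 factors. With 1 library in each group there were no replicate numbers to pair by. Depth limits uncut rhizome at 4 days most, where a count of 3 stands for 1.41 CPM.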
